A study of Drosophila melanogaster with 6 samples.

Results

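Intronic peaks of open chromatin were described here in wing imaginal discs of *Drosophila melanogaster*, on the chromosome arms 2L, 3L and 3R. A peak was counted as intronic when its summit lay inside a protein-coding gene, in no annotated exon, and more than 500 bp from every 5′ end of a protein-coding transcript. The ends of the arms were left out, which are 2L from 22 Mb, 3L from 22.9 Mb and 3R below 4.2 Mb. The 6 peak lists of the series hold 205290 peaks, of which 62517 met the rule. Merged across the lists they formed 13849 intronic regions of 47268 regions in all, with 3977 on 2L, 4290 on 3L and 5582 on 3R. The rule used positions alone, so the height of a peak and the genotypes that hold it were free to vary.

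The assay was ATAC-seq, in which the transposase Tn5 inserts sequencing adapters into accessible DNA. All larvae carried the ubiquitous driver *tub-Gal4* with *tub-Gal80* ts, a temperature-sensitive Gal80. They spent 7 days at 17 °C, where this Gal80 holds Gal4 off, and then 2 days at 31 °C, where the transgene is expressed. The driver expressed *GFP* in the control (*tub*>*GFP*), RNA interference against *Cdk1* in *tub*>*Cdk1-i*, and *fzr* in *tub*>*fzr*. For the figures that include this assay, the paper states that 2 *Cdk1* lines were combined for a stronger knockdown. Each genotype had 2 biological replicates of pooled discs. *Cdk1* encodes the kinase that drives cells into mitosis, and *fzr* encodes an activator of the anaphase-promoting complex whose expression moves cells into endocycles. Because whole discs were used, the libraries average every cell type of the disc. A change in the share of a cell type cannot be told apart from a change in accessibility per cell. For 4 lists, the sample labels and the file names disagree, and *Cdk1-i* in the labels is *fzr* in the names and the reverse. Genotypes follow the labels here, and with the exchange every value given for one of these genotypes belongs to the other. Peak positions cannot check the labelled genotypes against expression of the targeted genes.

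Introns of flies hold many enhancers, the stretches of DNA where transcription factors bind and from which they control a promoter at a distance. Long introns of developmental genes can carry several enhancers, each active in other cells or at other stages. Active enhancers are usually free of nucleosomes, so ATAC-seq finds them as peaks. In the wing disc such elements read out the patterning signals, the ecdysone pulse and the epithelial state of the tissue, while the cell cycle state was the variable that these genotypes changed.

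The sequences under the summits of 8 regions are printed because the results below turn on them. Each is a window of 300 bp around the summit, on the plus strand of the dm6 (Release 6) assembly of RefSeq, and capitals mark every match to one of 11 short motifs, spelled out with the motif results. The windows of *GATAd*, *abd-A*, *zfh1* and *Eip63E* come from regions that ranked near the top of every list.
*GATAd*, chr2L:10334956-10335255: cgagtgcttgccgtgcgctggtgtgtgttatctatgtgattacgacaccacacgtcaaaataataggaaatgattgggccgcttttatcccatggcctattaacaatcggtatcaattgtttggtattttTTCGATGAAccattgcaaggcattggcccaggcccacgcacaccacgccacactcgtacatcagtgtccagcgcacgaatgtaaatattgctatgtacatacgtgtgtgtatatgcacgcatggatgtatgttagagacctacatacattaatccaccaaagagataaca
*abd-A*, chr3R:16811907-16812206: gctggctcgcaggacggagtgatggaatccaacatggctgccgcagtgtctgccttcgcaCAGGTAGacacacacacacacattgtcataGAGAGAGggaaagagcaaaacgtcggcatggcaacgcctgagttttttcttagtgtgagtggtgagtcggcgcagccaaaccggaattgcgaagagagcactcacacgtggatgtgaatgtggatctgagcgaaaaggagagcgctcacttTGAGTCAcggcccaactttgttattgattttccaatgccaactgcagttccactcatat
*zfh1*, chr3R:30781843-30782142: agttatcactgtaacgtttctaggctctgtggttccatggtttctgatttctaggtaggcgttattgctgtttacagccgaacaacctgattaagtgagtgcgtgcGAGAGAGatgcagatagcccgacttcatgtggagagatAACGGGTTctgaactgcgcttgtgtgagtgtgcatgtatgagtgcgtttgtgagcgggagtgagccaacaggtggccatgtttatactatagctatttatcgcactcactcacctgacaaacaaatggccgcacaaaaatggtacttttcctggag
*Eip63E*, chr3L:3536872-3537171: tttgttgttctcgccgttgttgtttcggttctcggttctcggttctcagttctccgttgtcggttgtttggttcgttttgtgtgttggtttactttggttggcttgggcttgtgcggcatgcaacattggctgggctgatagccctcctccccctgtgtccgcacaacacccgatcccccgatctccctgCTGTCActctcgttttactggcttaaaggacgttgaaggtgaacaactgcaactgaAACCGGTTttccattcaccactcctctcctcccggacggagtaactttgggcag

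The following windows come from regions whose rank or presence differed between the genotypes. *CG34106* and *bbg* were not called in the fit of the percentiles, *CG34106* was on other scales given below, and *nuf* and *Sox100B*, which lack a peak in some list, were not fitted. By value, *CG34106* ranked higher in both manipulated genotypes, *bbg* ranked lower in *tub*>*Cdk1-i*, *nuf* had peaks in all 4 manipulated libraries and in no control, and *Sox100B* had peaks in the controls alone.
*CG34106*, chr2L:17156195-17156494: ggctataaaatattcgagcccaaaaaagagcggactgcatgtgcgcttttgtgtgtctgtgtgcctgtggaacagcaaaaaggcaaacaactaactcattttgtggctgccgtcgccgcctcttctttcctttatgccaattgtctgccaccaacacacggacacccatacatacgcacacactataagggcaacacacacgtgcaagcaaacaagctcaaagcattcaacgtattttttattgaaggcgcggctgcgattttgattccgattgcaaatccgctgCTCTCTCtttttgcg
*bbg*, chr3L:14440321-14440620: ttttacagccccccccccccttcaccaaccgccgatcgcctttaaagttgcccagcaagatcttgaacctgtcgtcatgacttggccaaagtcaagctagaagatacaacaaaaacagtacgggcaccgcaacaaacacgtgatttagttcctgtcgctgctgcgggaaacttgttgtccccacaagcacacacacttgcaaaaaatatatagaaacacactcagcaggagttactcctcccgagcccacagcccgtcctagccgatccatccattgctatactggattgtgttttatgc
*nuf*, chr3L:14212352-14212651: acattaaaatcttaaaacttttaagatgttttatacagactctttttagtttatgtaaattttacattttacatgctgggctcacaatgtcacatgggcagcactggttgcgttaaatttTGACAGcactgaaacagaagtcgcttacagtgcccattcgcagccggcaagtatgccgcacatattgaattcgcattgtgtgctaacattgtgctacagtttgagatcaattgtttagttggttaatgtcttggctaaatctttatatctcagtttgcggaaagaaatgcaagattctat
*Sox100B*, chr3R:31074661-31074960: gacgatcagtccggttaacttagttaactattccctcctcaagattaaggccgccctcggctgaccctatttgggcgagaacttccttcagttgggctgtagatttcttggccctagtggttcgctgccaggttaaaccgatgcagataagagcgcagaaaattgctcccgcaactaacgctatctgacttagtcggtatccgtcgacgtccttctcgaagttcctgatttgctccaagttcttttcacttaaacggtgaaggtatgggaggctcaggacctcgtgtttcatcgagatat

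A feature of all 6 lists bears on every intronic value and is therefore given before the results. Exons made up 29.8% of the bases of the arms, but between 0.933% and 1.13% of exon bases lay under a peak. More than 100 bp inside an exon this share was between 0.0895% and 0.135%. In introns it was between 13.9% and 17.8%, and between genes it was between 14.7% and 18.7%. Within introns the share was lower near exons. It was 14.8% to 19.3% at more than 200 bp from an exon, 13.0% to 14.8% at 51 to 200 bp and 6.06% to 6.96% at 1 to 50 bp. The lists therefore hold almost no peaks in exons, in all 3 genotypes, and intronic regions beside an exon were short. The 301 regions with a summit at 1 to 50 bp from an exon had a median length of 287 bp, against 437 bp for the 4065 regions at more than 200 and up to 1000 bp, and 21.3% against 50.5% of them had a peak in every list. Blacklisted regions had been filtered out before peak calling, and the part of that step in the missing exonic peaks was not tested.

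**Figure D1:**
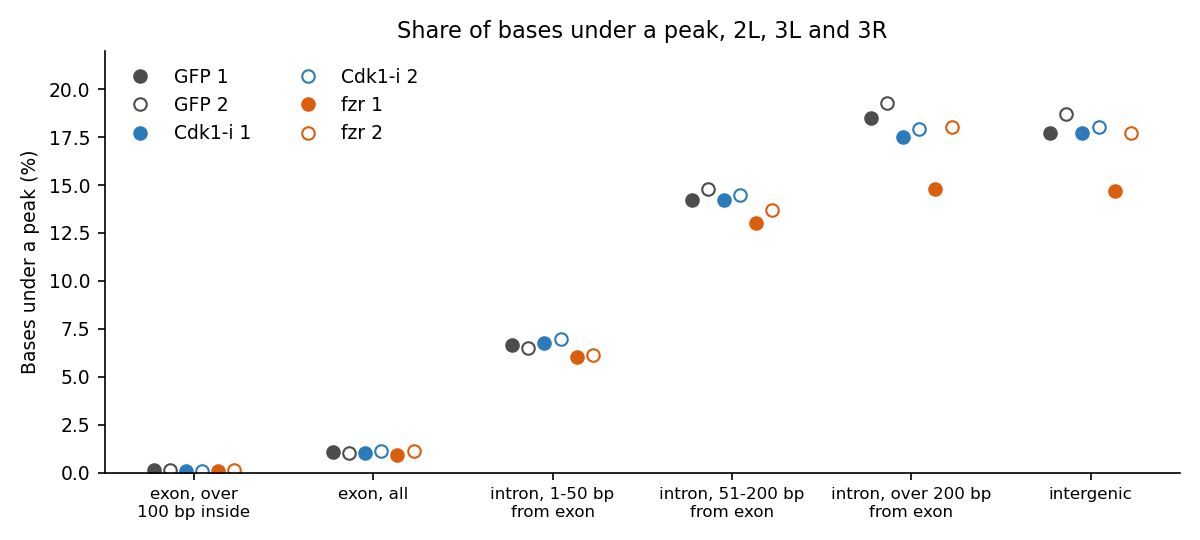
Share of the bases of 2L, 3L and 3R that lie under a peak, in percent, by distance from annotated exons, with 1 point per library (filled for replicate 1, open for replicate 2). Exon bases stay at or under 1.13% in every library, and introns at more than 200 bp from an exon reach 14.8% to 19.3%.

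Intronic peaks were the most numerous class on these arms. The control lists held 11320 and 10662 of them, the *tub*>*Cdk1-i* lists 11365 and 11291, and the *tub*>*fzr* lists 9986 and 7893. They made up 50.4% and 49.6% of the peaks of the arms in the controls, 49.5% and 49.3% in *tub*>*Cdk1-i*, and 48.7% and 47.8% in *tub*>*fzr*. Replicate 2 of *tub*>*fzr* stood apart, since its whole list held 27119 peaks while the others held between 33335 and 36715. Its intronic peaks were also the longest, with a median of 448 bp against 315 to 377 bp in the other libraries. For this reason *tub*>*fzr* shares and medians are also given by library below.

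Most intronic peaks were of middle height. MACS2 gives each peak a fold enrichment over its local background, and peaks were ranked here by the percentile of that value within their own list, from 0 to 100. The median percentile of intronic peaks was 47.5 and 46.5 in the controls, 47.2 and 46.4 in *tub*>*Cdk1-i*, and 46.1 and 46.2 in *tub*>*fzr*. Peaks within 500 bp of a 5′ end, called promoter peaks here, had medians between 77.3 and 80.8. Intronic peaks thus ranked lower than promoter peaks in 6 of 6 libraries, with a difference in medians of -32.2 ± 0.9 percentile points (SD, n = 6, two-sided exact sign-flip permutation test over libraries, p = 0.0312, the smallest that 6 libraries allow, adjusted p = 0.0375 over 6 tests). Against intergenic peaks the difference was 1.67 ± 0.755 points in the other direction (SD, n = 6, exact p = 0.0312, adjusted p = 0.0375), and it held in 6 of 6 libraries. Intronic peaks were 23.8 ± 2.86 bp longer than promoter peaks (SD, n = 6, exact p = 0.0312, adjusted p = 0.0375). Their length differed from that of intergenic peaks by 3.83 ± 5.42 bp (SD, n = 6, exact p = 0.25, adjusted p = 0.25), which is within the spread between libraries. Exons adjoin promoters, so the low number of peaks in exons touches the promoter comparison as well, and its part there was not tested.

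**Figure D2:**
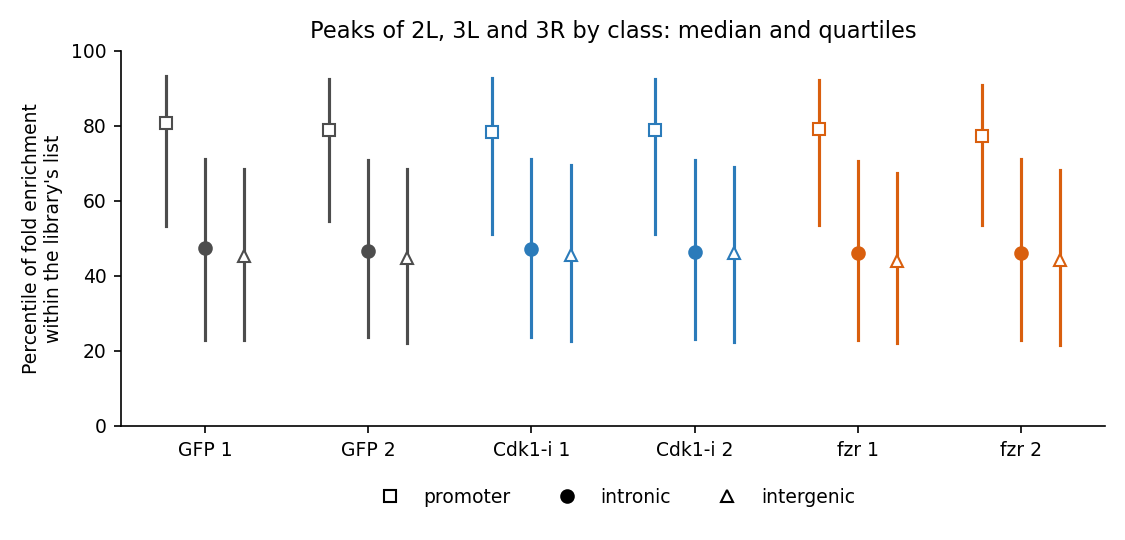
Percentile of fold enrichment within the library's own list for promoter, intronic and intergenic peaks of 2L, 3L and 3R. Points are medians and lines join the lower and upper quartiles. In every library the intronic median lies between 46.1 and 47.5 and the promoter median between 77.3 and 80.8.

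Intronic peaks were rare at the very top of the lists. None was among the 10 peaks of highest fold enrichment in any library, and between 8 and 15 were among the top 100, while they made up 29.1% to 31.3% of the lists. The distance limit of 500 bp did not cut through a step in height. Intronic summits at more than 400 and up to 500 bp from a 5′ end, just outside the rule, had median percentiles of 75.1 and 73 in the controls, 66.2 and 70.8 in *tub*>*Cdk1-i* and 67 and 63.1 in *tub*>*fzr*. Those at more than 500 and up to 600 bp, just inside it, had medians of 73.4 and 67.5, 63.8 and 68.5, and 66.8 and 67.4, so the members nearest to a 5′ end were higher than the class as a whole.

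Intronic regions lay in 2001 of the 8817 protein-coding genes of the 3 arms, 650 of these genes held 1 region, and the 425 genes with 10 or more held 67.2% of all intronic regions. The median host gene was 40.5 kb long and the median distance to a 5′ end was 5581 bp. Of the 12652 regions inside an intron of the host's canonical transcript, 36.6% lay in the intron nearest to the 5′ end, where 33.8% of the intron bases open to the rule lie. Introns over 10 kb held 54.5% of the regions and 54.7% of the bases. Regions were thus spread over introns about as the bases were.

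The gene with the most regions was *bru3*, which encodes an RNA-binding protein of the Bruno family. It held 128 regions in 281 kb of 3L, of which 31 had a peak in every list. *SKIP*, *pum*, which encodes the translational repressor Pumilio, *Rbp6*, which encodes an RNA-binding protein, and *heph*, which encodes the fly polypyrimidine tract-binding protein, followed with 86, 85, 83 and 81 regions. The remaining genes among the 10 were *sick*, *Dys*, which encodes dystrophin, *Sema1a*, a transmembrane semaphorin, *CG34353* and *Con*, a homophilic adhesion protein, with 63 to 71 regions each. Their density was alike, from 4.38 regions per 10 kb in *sick* to 5.31 in *SKIP*, but their height was not. The median over regions of the mean percentile, with a list without an intronic peak counted as 0, was 30.3 in *heph* and 30.1 in *SKIP* and only 11.1 in *bru3*, beside 25.2 over all intronic regions. In *SKIP* and *heph* 48 and 47 regions had a peak in every list.

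The 10 regions of highest mean percentile over the 6 lists were named for that value, so their rank in each genotype is a description. The region of highest mean percentile lay in the intron nearest to the 5′ end of *GATAd* (FBgn0032223, chr2L:10334805-10335307), which encodes a GATA-type transcription factor. Its fold enrichment was 26 and 20.3 in the controls, 25.5 and 24.7 in *tub*>*Cdk1-i*, and 25.7 and 15.2 in *tub*>*fzr*, and its percentile was at least 99.8 in each list. *abd-A* (FBgn0000014, chr3R:16811661-16812306), the Hox gene of abdominal segments, came next with fold enrichments of 18.5 and 19.2, 26.1 and 27.9, and 26.3 and 15. Fold enrichments were not scaled between libraries, and the lowest value of both genes was that of *tub*>*fzr* replicate 2. The median fold enrichment of intronic peaks was 2.99 there, 3 in control replicate 2 and 3.48 to 3.82 in the remaining libraries. Control replicate 2 had 20.3 and 19.2 in these genes, and the source of the lower values was not tested. The other 8 of the 10 highest were *cnc*, the fly orthologue of the oxidative stress regulator Nrf2, *zf30C*, a zinc finger gene, *Acf*, which encodes a subunit of a nucleosome spacing complex, *zfh1*, a zinc finger and homeodomain repressor, *Hsp110*, a chaperone gene, *put*, the type II receptor for Dpp and activin signals, *srl*, the fly PGC-1 orthologue, and *CG1090*. Their percentiles lay between 98.9 and 100 in all libraries.

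Matches to the Grainyhead and GAGA factor motifs were more frequent in the regions that every library shared, which is a description without a test. Windows of 300 bp around the summits were searched on both strands for GAGAGAG (the motif of Trithorax-like, known as GAGA factor), TATCGATA (DREF), CAGGTAG (Zelda), TGANTCA (AP-1), TTCNNNGAA (Stat92E), AACNGGTT (Grainyhead), GGAATG (Scalloped), GTGGGAA (bound by Su(H) in the Notch pathway), CAGCTG (an E-box), TGACAG (Exd/Hth type) and GGTCACACT (M1BP). A match is a stretch of letters and no evidence of binding. The Grainyhead motif, named for a factor that opens chromatin at epithelial enhancers, was present in 2.42% of 46618 intronic windows without a peak and in 2.81% of the 2067 regions with a peak in 1 list. It was present in 8.75% of the 6195 regions with a peak in all 6 lists, and in 22.1% of the 602 of these with a mean percentile of at least 90. The GAGA factor motif had the same order, with 3.08%, 4.6%, 8.15% and 16.1%. By contrast, the Exd/Hth type motif was at 16.2% in regions of 1 list, at 10.1% in those of mean percentile of at least 90, and at 11.9% without a peak. DREF and M1BP motifs, known from housekeeping promoters, were at 0.217% and 0.123% in intronic windows and at 4.5% and 2.88% in promoter windows. Over all classes, the Grainyhead motif was at 5.88% in intronic, 6.78% in promoter and 4.43% in intergenic windows.

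Base composition differed between these windows and moves with the motif shares. The median GC content was 37.7% in intronic windows without a peak, 46.3% in regions of 1 list and 49% in regions of all 6 lists, also for those of mean percentile of at least 90. The regions of mean percentile of at least 90 are part of those of all 6 lists. The part of base composition in the motif shares was not tested. In the printed windows, *zfh1* holds a GAGA factor and a Grainyhead motif within 50 bp of its summit, *Eip63E* holds the palindromic form of the Grainyhead motif, and *abd-A* holds Zelda, GAGA factor and AP-1 motifs. *GATAd* holds a Stat92E motif alone.

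**Figure D3:**
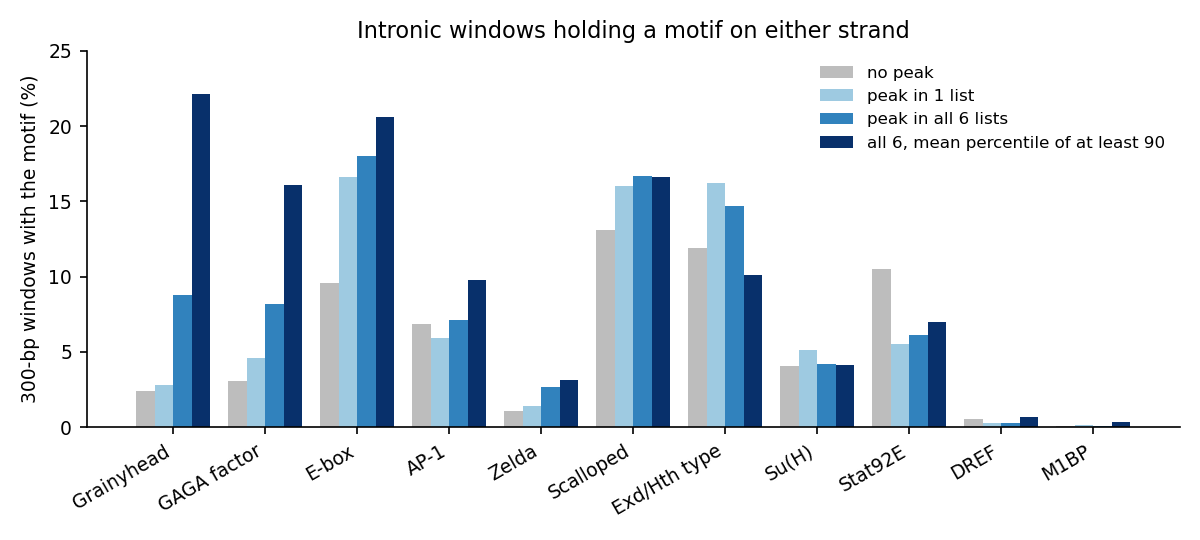
Share of intronic 300-bp windows, in percent, that hold each motif on either strand, for windows without a peak, regions with a peak in 1 list, in all 6 lists, and in all 6 lists with a mean percentile of at least 90. The Grainyhead share goes from 2.42% to 22.1% and the GAGA factor share from 3.08% to 16.1%.

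Intronic regions were mostly shared between the lists. Of the 13849 regions, 6195 (44.7%) had a peak in all 6 lists and 2067 (14.9%) in a single list, beside 42.9% and 16.4% of all 47268 regions. Regions of all lists were longer than those of 1 list, with medians of 616 and 203 bp. The share of intronic peaks of one list that were found in another was between 76.9% and 89.9% over the 6 ordered pairs of the same genotype, and between 67.4% and 91.1% over the 24 pairs of different genotypes. Each *tub*>*Cdk1-i* list had the most of its peaks in its own replicate, 89.8% and 89.9%, against 69.1% to 86.1% in any other list. In the controls the own replicate held 83.3% and 85.7%, and in the lists of other genotypes the share was 67.4% to 86%. The *tub*>*fzr* lists had 76.9% and 85.2% of their peaks in the own replicate and 87% to 91.1% in the other lists, which are longer.

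Of the 8857 intronic regions with a peak in both controls, the *tub*>*Cdk1-i* libraries held 92.9% and 93.3%, and the *tub*>*fzr* libraries 86% and 76.5%. The means were 93.1% ± 0.287 and 81.2% ± 6.73 (SD, n = 2 each). Over all regions these shares were 91.5% and 91.7%, and 85.3% and 75.9%. Promoter regions were held more often, at 95.6% and 96.7% in *tub*>*Cdk1-i* and at 93.3% and 85.6% in *tub*>*fzr*. The *tub*>*fzr* lists were also the shorter ones, and the part of list length in the difference between the genotypes was not tested. When every list was reduced to its 27119 strongest peaks, the means came to 91.3% in *tub*>*Cdk1-i* and 88.1% in *tub*>*fzr*, so a smaller difference remained. A comparison of 2 against 2 libraries cannot give an exact p under 0.333, so none was tested.

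The height of a region in the controls went with whether it was found again. Of the 1166 control regions with a mean control percentile under 20, 75.3% and 75.2% had a peak in the *tub*>*Cdk1-i* libraries, 60.7% in *tub*>*fzr* replicate 1 and 40.1% in replicate 2. Of the 1589 regions at 80 or above, between 99.3% and 100% had a peak in each of the 4 libraries. At 40 to 60 the shares were 96.3% and 97.2% in *tub*>*Cdk1-i* and 91.4% and 79.3% in *tub*>*fzr*, so replicate 2 of *tub*>*fzr* also lacked regions of middle height. Regions at 80 or above were retained in both manipulated genotypes.

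**Figure D4:**
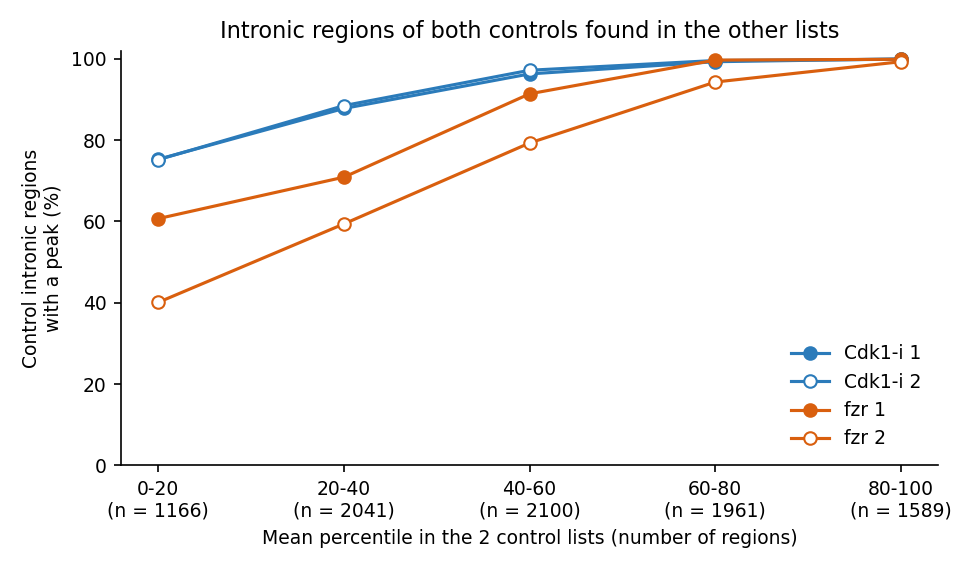
Share of the 8857 intronic regions of both controls that had a peak in each manipulated library, in percent, by the mean percentile of the region in the control lists. The share rises from 40.1% to 75.3% in the lowest bin to 99.3% to 100% in the highest.

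Gains and losses were counted by presence. A region was gained when both libraries of a genotype and neither control had a peak, and lost in the reverse case. In *tub*>*Cdk1-i* 473 of the 1774 intronic regions without a control peak were gained (26.7%), beside 22.2% over all regions of the series, and 336 of 8857 were lost (3.79%), beside 5.2%. In *tub*>*fzr* 136 were gained (7.67%, beside 7.64%) and 834 were lost (9.42%, beside 9.57%). The *tub*>*fzr* shares were near those of the whole lists. In *tub*>*Cdk1-i* the share of gains was higher and that of losses lower than over all regions, as it was for intergenic regions, at 28.4% and 3.84%. With 27119 peaks per list, 400 intronic regions were gained in *tub*>*Cdk1-i* (19%, beside 16.2% over all regions) and 215 in *tub*>*fzr* (10.2%, beside 9.84%). The lost ones were 330 (5.02%, beside 5.86%) and 326 (4.96%, beside 4.97%). The larger number of losses in *tub*>*fzr* than in *tub*>*Cdk1-i* was thus not present with lists of equal length. Read from *tub*>*fzr* replicate 1 alone, 543 regions were gained (30.6%, beside 31.5%) and 1240 lost (14%, beside 14.7%).

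Gained and lost regions were shorter in the median than the 411 bp of all intronic regions. The median length was 240 bp for regions gained in *tub*>*Cdk1-i* and 345 bp for those gained in *tub*>*fzr*. Regions lost in these genotypes had median lengths of 331 and 364 bp and median control percentiles of 18.3 and 22.5. The regions named below were chosen for their height. In *nuf* (FBgn0013718, chr3L:14212379-14212624), which encodes a partner of Rab11 in membrane traffic, neither control had a peak, the *tub*>*Cdk1-i* libraries had fold enrichments of 10.9 and 10.5, and the *tub*>*fzr* libraries 12.2 and 5.28. The region is 246 bp long and its percentiles were 93.3, 93.1, 93.6 and 81.4. In *pb* (FBgn0051481, chr3R:6708962-6709135), the Hox gene of the mouthparts, the fold enrichment was 11.9 and 12.7 in *tub*>*Cdk1-i* and 15.3 in *tub*>*fzr* replicate 1. Replicate 2 and both controls had no peak there, so the *tub*>*fzr* replicates differ, and the region is only 174 bp long.

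*CG11050* had the same pattern as *pb*, with fold enrichments of 10.4 and 9.89 in *tub*>*Cdk1-i*, 13.4 in *tub*>*fzr* replicate 1 and no peak in replicate 2, in a region of 168 bp. In *Svil*, which encodes an actin-binding protein of the villin family, the fold enrichment was 9.21 and 7.61 in *tub*>*Cdk1-i* and 9.29 in *tub*>*fzr* replicate 1, and a peak of another class overlapped the region in replicate 2. In *comm3*, a relative of the axon guidance gene *comm*, it was 16.5 and 7.44 in *tub*>*fzr* and 13 in *tub*>*Cdk1-i* replicate 2, with no peak in replicate 1. Both genotypes were compared with the same controls. In *Prestin*, which encodes an anion transporter, the fold enrichment was 9.64 and 4.8 in *tub*>*fzr* and no other library had a peak. *CG34375*, the last of the named gains, had peaks in all 4 manipulated libraries at percentiles 81.8, 84.3, 72.3 and 81.4.

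The losses of highest control percentile were lower than these gains. *Sox100B* (FBgn0024288, chr3R:31074605-31074965), which encodes a Sox transcription factor, had fold enrichments of 4.69 and 3.55 in the controls and no peak in any of the other 4 libraries. In *bun*, a TSC22 family gene with a role in growth, the controls were at percentiles 65.2 and 74.1 and the *tub*>*fzr* libraries at 72.5 and 69.7, while neither *tub*>*Cdk1-i* library had a peak. *sky*, which encodes a Rab GTPase-activating protein of the synapse, had the same pattern at 58.3 and 65.3 against 57.5 and 53.9. *Syp*, which encodes an RNA-binding protein, was at 62.2 and 71 in the controls and at 26.8 in *tub*>*fzr* replicate 1 alone.

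The named losses of *tub*>*fzr* other than *Sox100B* had peaks in *tub*>*Cdk1-i*, and these few were named for their height alone. *CG42238* was at percentiles 73.4 and 77.6 in the controls and 68.3 and 74.3 in *tub*>*Cdk1-i*, with no peak in *tub*>*fzr*. *Dop1R2*, which encodes a dopamine receptor, was at 70.5 and 49 in the controls and higher, at 87 and 82, in *tub*>*Cdk1-i*. *Ziz*, which encodes an exchange factor for small GTPases, was at 55.7 and 61 in the controls and at 16.4 and 26.8 in *tub*>*Cdk1-i*.

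Changes in height were tested on the regions that had a peak of their class in all 6 lists. Of 18894 such regions of every class, 5914 were intronic, which is a set chosen to lack gains and losses. The percentiles were fitted with limma and p was adjusted over all 18894 regions by the Benjamini-Hochberg method. No intronic region passed an adjusted p of 0.05 in *tub*>*Cdk1-i* against the control, in *tub*>*fzr* against the control or in *tub*>*fzr* against *tub*>*Cdk1-i*. The share called over all regions was 0% in each of these comparisons. At an unadjusted p under 0.05, 269 intronic regions were higher and 229 lower in *tub*>*Cdk1-i* (8.42%, beside 8.8% over all regions), and 128 were higher and 758 lower in *tub*>*fzr* (15%, beside 14.6%). Between the manipulated genotypes 85 were higher and 775 lower in *tub*>*fzr* (14.5%, beside 14.6%).

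The lower values in *tub*>*fzr* were not particular to intronic regions. The median change of intronic regions was 0.62 points in *tub*>*Cdk1-i* and -4.70 in *tub*>*fzr*, and over all regions it was 0.48 and -4.16. When the regions were ranked among themselves, the intronic medians were 0.24 and 0.16, and 346 intronic regions were higher and 286 lower in *tub*>*fzr* at an unadjusted p under 0.05. The direction of the median in *tub*>*fzr* thus depended on the scale of the ranks. It also differed in size between the libraries, with an intronic median of -2.64 points in replicate 1 and -6.08 in replicate 2 over the same regions. On the log2 fold enrichment with quantile normalization, limma called 1 intronic region higher in each manipulated genotype (0.0169%, beside 0.164% over all regions in *tub*>*Cdk1-i* and 0.0318% in *tub*>*fzr*). Without *tub*>*fzr* replicate 1, when replicate 2 stands alone for the genotype and is assumed to vary like the others, 3 intronic regions were called higher and 112 lower in *tub*>*fzr* (1.85% of those fitted, beside 2.92% over all regions), and 0 were without replicate 2.

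*CG34106* had the smallest p in both comparisons (FBgn0083942, chr2L:17156048-17157020). Its fold enrichment was 2.59 and 2.26 in the controls, 6.34 and 6.46 in *tub*>*Cdk1-i*, and 7.98 and 4.6 in *tub*>*fzr*. The controls lay well below the other 4 libraries, at percentiles 16.8 and 14.8 against 75.3 to 83.1. The change was 63 ± 8.61 points (SE) in *tub*>*Cdk1-i* (limma, adjusted p = 0.128) and 63.4 ± 8.61 points in *tub*>*fzr* (adjusted p = 0.271), which was not called. This is the region that passed on the log2 scale with quantile normalization, with a change of 1.18 in *tub*>*Cdk1-i* (adjusted p = 0.0242) and 1.37 in *tub*>*fzr* (adjusted p = 0.0329). It also passed on normal scores of the percentile in *tub*>*Cdk1-i* (adjusted p = 0.0355). Between the manipulated genotypes its difference was 0.442 ± 8.61 points (SE, adjusted p = 0.99).

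*dpr6* (FBgn0040823, chr3L:10059133-10060369), which encodes a cell surface protein of the immunoglobulin family, had the same direction. Its percentile was 42.7 and 56.4 in the controls, 92.7 and 89.1 in *tub*>*Cdk1-i*, and 85.4 and 97.1 in *tub*>*fzr*, so the controls did not overlap with the other libraries. The change was 41.4 ± 6.61 points (SE) in *tub*>*Cdk1-i* (limma, adjusted p = 0.185) and 41.7 ± 6.61 in *tub*>*fzr* (adjusted p = 0.271). *Ccn*, which encodes a secreted matrix protein, and *CG2162* were smaller cases of this kind, with changes of 15.3 ± 2.36 and 16.7 ± 2.98 points (SE) in *tub*>*Cdk1-i* that were not called.

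In *bbg* (FBgn0087007, chr3L:14440202-14440647), which encodes a PDZ domain protein of septate junctions, the percentile was 85.9 and 85.1 in the controls, 84.3 and 89.9 in *tub*>*fzr*, and 55.5 and 45.5 in *tub*>*Cdk1-i*. Here *tub*>*Cdk1-i* alone was low, by 35 points against the control with an SE of 6.16 (limma, adjusted p = 0.213). In *CG2082*, *tub*>*fzr* alone was low, at 7.18 and 4.97 against 73.6 and 62 in the controls and 49.3 and 61.2 in *tub*>*Cdk1-i* (limma, adjusted p = 0.271 against the control). *CG44153* and *ry*, which encodes xanthine dehydrogenase, were at 72.9 and 80.9 and at 85.9 and 81.4 in *tub*>*fzr*, below the 91.4 to 98.8 and 94.4 to 98 of the other libraries. None of these was called, so each remains a difference between 2 pairs of libraries.

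**Figure D5:**
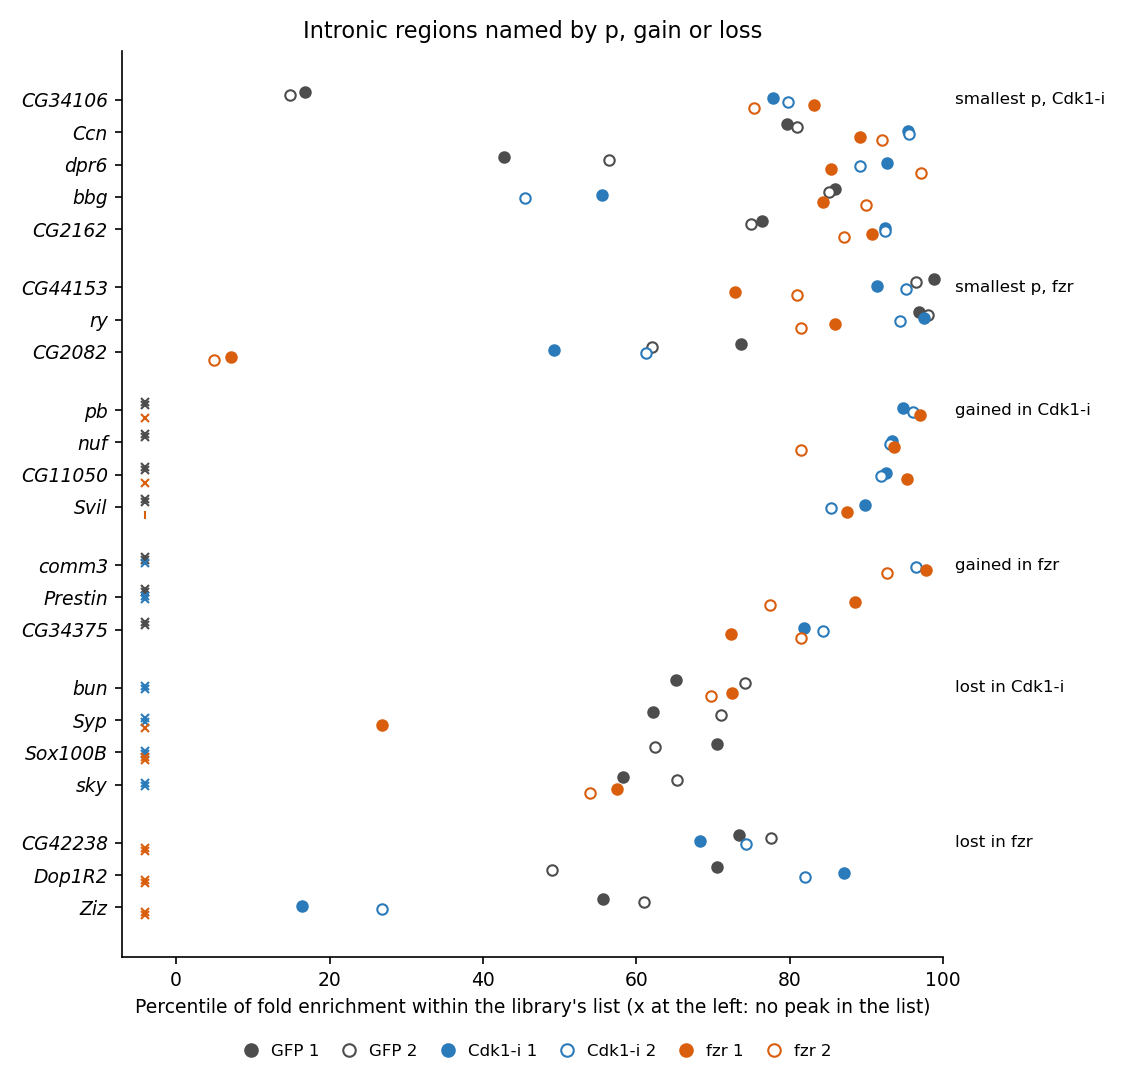
Percentile of fold enrichment within the library's own list for the intronic regions named for a small p, a gain or a loss, with 1 point per library (filled for replicate 1, open for replicate 2). A cross at the left marks a list without a peak, and the bar in the row of *Svil* marks a list whose overlapping peak has its summit outside the intronic class. In *CG34106* the controls lie at 14.8 and 16.8 and the other libraries at 75.3 to 83.1.

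Regions were also counted in 9 lists of genes with known roles. The list named wing disc patterning also includes Hox genes of other segments, such as *abd-A*. Of its 30 genes on these arms 26 held 284 regions, of which 147 (51.8%) had a peak in all 6 lists. Its highest regions lay in *abd-A*, *Abd-B* (FBgn0000015, chr3R:16948588-16948929) and *Ubx* (FBgn0003944, chr3R:16702697-16703380), the Hox genes of the bithorax complex. Peak lists do not show whether these genes are expressed in the wing disc. *Abd-B* was at percentiles 99.5 and 99 in the controls, 99.7 and 99.8 in *tub*>*Cdk1-i*, and 99.7 and 97.5 in *tub*>*fzr*. *Ubx*, which specifies the haltere, was at 97.2 and 99.2, 99.6 and 99.6, and 99.6 and 99.8. Within this list 9 regions were gained and 5 lost in *tub*>*Cdk1-i*, and 6 gained and 15 lost in *tub*>*fzr*, of 40 without a control peak and 182 with a peak in both controls. The lost shares were 2.75% and 8.24%, beside 5.2% and 9.57% over all regions, and the gained ones 22.5% and 15%, beside 22.2% and 7.64%. *tub*>*fzr* replicate 1 lacked 9.89% of the control regions and replicate 2 lacked 15.4%, beside 14% and 23.5% over all intronic control regions.

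Signalling genes held 315 regions in 22 of 28 genes, with 53% in all lists. Besides *put*, the highest lay in *ft* and *wts*, a cadherin and a kinase of the Hippo pathway, with percentiles between 97.5 and 99.2 in all libraries. Ecdysone response genes held 173 regions in 9 of 9 genes, with 54.3% in all lists, and 0.87% of their control regions were lost in *tub*>*fzr*, which is 1 region (beside 9.57% over all regions). Replicate 1 of *tub*>*fzr* lacked 4.35% of them and replicate 2 lacked 13%. In *tub*>*Cdk1-i* 1.74% of them were lost (beside 5.2%), and 4.35% of the 23 regions without a control peak were gained (beside 22.2%). The ecdysone response regions had a median mean percentile of 32.1, beside 25.2 over all intronic regions. The part of height and list length in the low share of losses was not tested. The highest of them lay in *ftz-f1*, a nuclear receptor gene of the ecdysone cascade, at percentiles between 98.1 and 99.3, and in *Eip63E*, an ecdysone-induced kinase gene, at 97.3 to 98.3. These lists stood above the 44.7% of all intronic regions in their share of regions with a peak in every list.

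Cell cycle genes were the group closest to the manipulation. Of 24 genes on the arms 8 held 45 regions, beside 2001 of 8817 genes in all, and 31 of the 45 (68.9%) had a peak in all lists, with a median mean percentile of 52.2. None of their 36 control regions was lost in either genotype, beside 5.2% and 9.57% over all regions, and 1.52% and 4.52% of all intronic control regions with a mean control percentile of 40 to 60. Of the 36, *tub*>*fzr* replicate 1 lacked 0 and replicate 2 lacked 4. In *CycA* (FBgn0000404, chr3L:11832429-11832911), which encodes a mitotic cyclin, the percentile was 100 and 95.5 in the controls, 99.6 and 99.2 in *tub*>*Cdk1-i*, and 98.7 and 90.9 in *tub*>*fzr*. In *CycE* (FBgn0010382, chr2L:15742861-15744368), the cyclin of S phase entry, it was 81.7 and 92, 92.6 and 93, and 89.4 and 91.5. The *CycA* values overlapped between the genotypes, while both *tub*>*Cdk1-i* values of *CycE* lay above the other 4. The change in *CycE* was 5.96 ± 3.32 points (SE) in *tub*>*Cdk1-i* (limma, adjusted p = 0.653). *CycG*, which encodes a regulatory cyclin, was at 89.2 to 94 in all libraries.

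Adhesion and cytoskeleton genes held 355 regions in 16 of 17 genes, with 43.4% in all lists. Their highest regions lay in *CadN*, *fred* and *ed*, which encode a cadherin and immunoglobulin family adhesion proteins, at percentiles between 94.7 and 98.7. Genes chosen as markers of other cell types of the disc also held intronic regions. These counts do not show in which cells a region is open, and *kni* of the tracheal list is also in the patterning list. Haemocyte genes held 59, tracheal genes 34 and myoblast genes 21 regions, of which 3 of 35, 0 of 20 and 2 of 16 control regions were lost in *tub*>*fzr* (8.57%, 0% and 12.5%, beside 9.57% over all regions). The highest lay in *ush*, a cofactor of GATA factors, at percentiles up to 97.4, in *trh*, a regulator of tracheal fate, up to 95.2, and in *zfh1*, which is also expressed in the myoblasts of the disc.

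Neuronal genes were the list with the most regions and the lowest ones. It held 409 in 11 of 11 genes, with 31.1% in all lists and a median mean percentile of 14.4. A peak was present in 73.6% and 67.5% of them in the controls, in 73.3% and 71.6% in *tub*>*Cdk1-i*, and in 48.9% and 42.1% in *tub*>*fzr*. Over all intronic regions these shares were 77% and 74.2%, 76.7% and 76.6%, and 66.1% and 58.2%. Both *tub*>*fzr* libraries thus lay below the other 4 in the neuronal list, and 48 of 226 control regions were lost (21.2%, beside 9.57% over all regions of the series). Replicate 1 lacked 26.1% and replicate 2 lacked 38.9% of them, beside 14% and 23.5% over all intronic control regions. Losses occurred in 9 of the 11 genes and were uneven. They were 16 of 60 control regions in *bru3*, 11 of 42 in *Rbp6* and 8 of 16 in *nAChRalpha1*, a subunit of the acetylcholine receptor. In *nAChRalpha5*, *Dscam3* and *Dscam2* they were 4 of 15, 1 of 6 and 1 of 2. In *CadN*, *pros* and *Ten-m*, a transmembrane adhesion protein, they were 3 of 31, 2 of 16 and 2 of 34. In *nSyb* and *Syt1* they were 0 of 3 and 0 of 1. *bru3* and *Rbp6* held 128 and 83 of the 409 regions, and *CadN* and *Ten-m* are also in the adhesion list. The highest regions of the list, in *CadN*, *bru3* and *pros*, a regulator of neural differentiation, were at percentiles between 91.4 and 98.7 in all libraries. Fewer neurons and lower accessibility in the same cells cannot be told apart in whole discs. The height of the regions and the length of the lists were examined after the data were seen. Of control regions with a mean control percentile under 20, 47.5% of 40 neuronal and 29.4% of 1126 other intronic regions were lost, and at 20 to 40 these shares were 32.5% of 83 and 18.4% of 1958. At 40 to 60 they were 3.85% of 52 and 4.54% of 2048, and at 60 to 80 they were 0% of 40 and 0.104% of 1921. The neuronal share was thus above that of the other regions under 40 alone. With 27119 peaks per list, 6 of 117 neuronal control regions were lost (5.13%), beside 4.96% of all 6571 intronic ones. The full lists held 226 and 8857 such regions. In this count a summit inside any listed gene was neuronal, also where a shorter gene held it. The cut removes the weakest peaks, so low regions, where the neuronal share was higher, are the likeliest to drop out. It therefore cannot separate list length from height.

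By limma none of the fitted regions of these 9 lists was called in either genotype at an adjusted p of 0.05. The median change ranged from -0.391 points in ecdysone response genes to 4.72 in neuronal genes in *tub*>*Cdk1-i*, beside 0.48 over all regions. In *tub*>*fzr* it ranged from -5.61 in myoblast genes to -0.664 in tracheal genes, beside -4.16, and the libraries differed. In myoblast genes the median was 3.21 in replicate 1 and -7.4 in replicate 2, and in neuronal genes it was -5.09 and -5.76. In neuronal genes, 126 regions entered the fit, and 20 of 58 regions without a control peak were gained in *tub*>*Cdk1-i* (34.5%, beside 22.2% over all regions), and 12 of 226 were lost (5.31%, beside 5.2%).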

How the data were processed

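Chromatin accessibility was profiled by ATAC-seq in wing discs, with 2 libraries per genotype. Within nf-core/atacseq (v1.2.1, Nextflow v20.10.0) the authors aligned reads to dm6 with BWA-MEM (v0.7.17), filtered blacklisted regions and called narrow peaks in each library with MACS2 (v2.2.7.1). Each deposited peak carries a fold enrichment, which is the ratio of its signal to the local background as MACS2 computed it for the authors. It also carries a −log10 p and a −log10 q that were deposited as MACS2 wrote them, and the lowest −log10 q of a list was between 2 and 2.16. The deposited score, a whole number, was not used. Read counts were not part of the lists, which leaves the depth unknown and allows no counting interval. The authors compared counts with DESeq2, which was not repeated.

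Summits were classed with the Ensembl 115 annotation, without its 5896 transposable element entries as exons. The peaks of the 3 arms end within the chromosome lengths of this reference. Regions were merged within a class, and a list held a region when any of its peaks overlapped it by at least 1 bp. Percentiles were fitted with limma 3.58.1 (R 4.3.3) in a model of 3 genotypes with a trended prior, and classes were compared by exact sign flips over libraries. Other steps ran in Python 3.11.15 with Matplotlib 3.10.9, NumPy 2.4.6, pandas 2.3.3 and SciPy 1.17.1. The code was tested on simulated data with planted changes. Motifs were searched in the RefSeq sequence of the same assembly.

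The members, the gene lists and the tests were chosen with earlier results of these data known. Regions were named by rule: the 10 of highest mean percentile, the 5 of smallest p in each genotype since none was called, the 4 gained and 4 lost regions of highest percentile in each genotype, the 3 highest in each of 9 gene lists, and the 10 genes with the most regions. The processing was varied by a −log10 q of at least 5, lists cut to the same number of peaks, a distance of 1000 bp, an overlap of 0.5 of the shorter peak, peaks whose own summit is intronic, other scales of the ranks, ranking by −log10 p, exchanged labels, a replicate block and leaving out each library. Transposable elements counted as exons, peaks of at least 200 bp, summits at least 200 bp from an exon and *tub*>*fzr* read from each library alone were added after the data were seen.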

Additional observations from a re-analysis of the deposited data

Results flagged for a closer look

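Among the named regions, *Dop1R2* alone had both *tub*>*Cdk1-i* libraries above and both *tub*>*fzr* libraries below the controls. The region was named as a loss in *tub*>*fzr*, so the *tub*>*fzr* side of this pattern was fixed by the choice. Its percentile was 70.5 and 49 in the controls and 87 and 82 in *tub*>*Cdk1-i*, and neither *tub*>*fzr* list held a peak. With a list without a peak counted as 0, the mean of *tub*>*fzr* minus that of *tub*>*Cdk1-i* was -84.5 points. This difference was not tested, since regions without a peak in some list were not fitted.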

How the results depend on the processing

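The number of intronic regions stayed within 1.5 times 13849 under all 14 alternatives. The share with a peak in all lists was 43.2% at a −log10 q of at least 5, 42.7% for peaks whose own summit is intronic, 46.2% for summits at least 200 bp from an exon, and between 45.9% and 53.3% when a library was left out. The mean share of control regions held by *tub*>*Cdk1-i* was 94% at a −log10 q of at least 5, 91.3% with equal lists, 92.7% for own intronic summits, 92.2% for peaks of at least 200 bp and 85.8% to 93.3% without a library, and that held by *tub*>*fzr* was 88.1% with equal lists and 71.3% to 86.2% without a library. Exchanging the labels gives 81.2% for *tub*>*Cdk1-i* and 93.1% for *tub*>*fzr*, gains of 136 and 473 and losses of 834 and 336. Equal lists gave 215 gains and 326 losses in *tub*>*fzr*. Leaving out a library relaxes the definition, and then gains ranged from 470 to 1208 in *tub*>*Cdk1-i* and from 136 to 591 in *tub*>*fzr*, and losses from 336 to 1004 and from 833 to 2081. Called intronic regions were 1 higher in *tub*>*Cdk1-i* on normal scores, and 1 higher in *tub*>*Cdk1-i* and 1 in *tub*>*fzr* on quantile-normalized log2 fold enrichment. Without a library they were 0 to 3 higher and 0 to 112 lower in *tub*>*fzr*, the extremes without its replicate 1. The distance of intronic from promoter medians was -32.4 to -32 points without a library, with an exact p of 0.0625, the smallest that 5 libraries allow. The deviations of same-numbered replicates correlated at 0.122 between the control and *tub*>*Cdk1-i*, 0.302 between the control and *tub*>*fzr*, and 0.0243 between the manipulated genotypes. The main fit did not pair the libraries. With the replicate block limma called 0 intronic regions in each comparison, and the smallest intronic adjusted p was 0.0508, in *tub*>*Cdk1-i*. Over all regions the block gave 2 higher and 13 lower in *tub*>*Cdk1-i* and 0 in the others. Depth is unknown, 2 libraries per genotype limit the tests, and the lists say nothing about accessibility in exons.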

Other observations

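The motif sets also differed in how often their regions were lost, as a description without a test. Of the 643 control regions with a Grainyhead motif in the window, 17 (2.64%) were lost in *tub*>*fzr* and 11 (1.71%) in *tub*>*Cdk1-i*, beside 9.42% and 3.79% over all 8857 intronic control regions. Of the 1429 with an Exd/Hth type motif, a sequence bound by cofactors of Hox proteins, 172 (12%) and 68 (4.76%) were lost. *tub*>*fzr* replicate 1 lacked 4.98% of the control regions with a Grainyhead motif and 17.4% of those with an Exd/Hth type motif, replicate 2 lacked 10.7% and 29.3%, and over all intronic control regions the shares were 14% and 23.5%. Regions with the Grainyhead motif were also high, with a median mean percentile of 56.9, against 23.8 for those with the Exd/Hth type motif and 25.2 over all, and the part of this height in the losses was not tested. Among the fitted regions, the median change in *tub*>*fzr* was -0.438 points for the 511 with a Grainyhead motif, -4.16 for the 465 with a GAGA factor motif and -6.2 for the 881 with an Exd/Hth type motif, beside -4.7 over the 5914 intronic regions. In replicate 1 these medians were -0.896, -1.54 and -3.97, and in replicate 2 they were -0.157, -5.84 and -8.47. Since high percentiles have little room to move, these medians are not independent of height.

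Several high gains were short. The regions in *pb*, *CG11050*, *Svil* and *nuf* measured 174, 168, 182 and 246 bp, against a median of 411 bp over all intronic regions, and their percentiles in *tub*>*Cdk1-i* lay between 85.3 and 96.1 with no peak in either control. In *CG34375* the region of 369 bp had a peak in all 4 manipulated libraries and in no control as well.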
